A study of Mus musculus with 2 samples.

Results

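AP-1 and the early growth response factors were followed in 10 genes, Jun, Junb, Jund, Fos, Fosb, Fosl1, Fosl2, Atf3, Egr1 and Egr2, out of 19938 genes with a probe set of their own. The rule took them by gene symbol, with earlier results of these data known, and each had 1 probe set assigned to it alone in the platform annotation. All 10 symbols matched RefSeq genes by Entrez identifier. RNA came from macrophages of the mouse colonic lamina propria, sorted by flow cytometry as CD45+IAb+CD11b+F4/80+CD103- cells. The control array held cells of mice given drinking water for 5 days, and the DSS array cells of mice given 3% (wt/vol) dextran sulfate sodium, which injures the colon lining, for the same time. Each group was 1 array with no replicate. The sources used here give neither the strain and age of the mice nor how many were pooled.

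AP-1 is a dimer of basic leucine zipper (bZIP) proteins. JUN proteins pair with each other or with FOS and ATF proteins, whereas FOS proteins bind DNA only with a partner. The EGR proteins are zinc finger factors. Most of these genes are immediate early genes, switched on within minutes by growth factors, Toll-like receptor ligands or stress, through kinases that act on factors already present at their promoters. In macrophages they help set the response to microbial products, and they are also known to be induced by the handling of cells.

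Jun and Egr1 were the members at least 2-fold lower on the DSS array, at 2.80-fold and 2.73-fold. Atf3, Egr2 and Fosb were lower by 1.57-fold, 1.52-fold and 1.52-fold, and Fosl1 and Fosl2 were higher by 1.49-fold and 1.34-fold. Fos, Junb and Jund were within 1.2-fold. Folds were taken from the difference between log2 signals, DSS minus control. With 1 array in each group no test was possible, and every difference compares these 2 arrays rather than the conditions.

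The promoters of Jun and Atf3, both lower in DSS, of Egr2, also lower, and of Fos, which read nearly the same on both arrays, are shown because they hold letters close to the cyclic AMP response element (CRE), a site that ATF, CREB and JUN proteins can bind. Capitals mark matches to TGACGTCA with at most 1 difference and, in Egr2, also the CArG box, the site of serum response factor. The sequences are from RefSeq, build GRCm38.p6, written 5′ to 3′ on the strand of the gene. The Jun, Atf3 and Fos sequences are the 250 bases before the start of transcription, at chr4:95052223-95052472 on the minus strand, chr1:191183334-191183583 on the minus strand and chr12:85473640-85473889 on the plus strand. The Egr2 sequence is a stretch of 30 bases at chr10:67537794-67537823 on the plus strand.
Jun: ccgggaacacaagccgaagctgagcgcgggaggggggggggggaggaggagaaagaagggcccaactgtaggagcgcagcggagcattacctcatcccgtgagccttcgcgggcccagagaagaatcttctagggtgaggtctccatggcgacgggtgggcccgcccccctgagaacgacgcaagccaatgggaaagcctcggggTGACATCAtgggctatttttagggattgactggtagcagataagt
Atf3: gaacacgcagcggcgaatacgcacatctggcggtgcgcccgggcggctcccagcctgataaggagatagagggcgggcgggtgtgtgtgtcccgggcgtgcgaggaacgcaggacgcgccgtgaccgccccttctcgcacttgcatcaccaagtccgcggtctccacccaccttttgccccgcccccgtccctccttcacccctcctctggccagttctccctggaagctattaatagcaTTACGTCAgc
Egr2: agtCCATATATGGgcagCGACGTCAcgggt
Fos: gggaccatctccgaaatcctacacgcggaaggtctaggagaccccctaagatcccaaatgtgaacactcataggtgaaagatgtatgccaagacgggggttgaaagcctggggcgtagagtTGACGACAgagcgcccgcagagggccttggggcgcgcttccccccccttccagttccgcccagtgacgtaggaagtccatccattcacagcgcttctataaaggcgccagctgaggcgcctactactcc

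Upstream windows of 250 bases were found for 8 of the 10 members, all but Fosl1 and Egr1. Egr2 had 5 start sites and so 5 overlapping or neighbouring windows, and every other member had 1. A member was counted for a motif if any of its windows held it, whereas shares are of single windows, so Egr2 had 5 chances. The CRE-like match was present in 4 of the 8 (Jun, Atf3, Egr2 and Fos) and in 10.6% of all 32851 windows. It lay 38 to 45 bases before the start in Jun, 3 to 10 bases before it in Atf3 and 122 to 129 bases before it in Fos. This motif was chosen after the sequences were seen. Matches are by letters alone, and stretches with more than 1 difference, such as tgacgtag in the printed Fos sequence, were not marked. The exact CRE, TGACGTCA, was found in 0 of the 8 and in 1.55% of all windows, and the AP-1 site TGANTCA in 0 of the 8 and in 6.75%. The CArG box was found in Egr2 and in 1.47% of all windows. In the printed stretch, which 3 of the 5 Egr2 windows share, it lies 4 bases from a CRE-like match and does not overlap it. Those 3 windows hold a further CRE-like match upstream of the printed stretch, and another Egr2 window holds a CArG box of its own. The EGR site GCGTGGGCG was found in 0 of the 8 and in 0.536% of windows, GGGCGG, a site of Sp1 and related factors, in 6 and in 32.7%, and the kappaB motif in 3 (Fos, Fosb and Fosl2) and in 3.90%. Both strands were searched, and sites more than 250 bases before the start were not looked for. Some GGGCGG matches in Atf3 and Fosb overlap each other, as do the kappaB matches in Fosl2. The CRE-like letters were present in Jun, Atf3 and Egr2, which were lower in DSS, and in Fos, which differed by 1.02-fold. They were not found in the window of Fosb, which was as much lower as Egr2. Any bearing of these letters on the differences was not tested, and Egr1 and Fosl1 had no window. Junb and Jund had none of these motifs in the window.

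**Figure D1:**
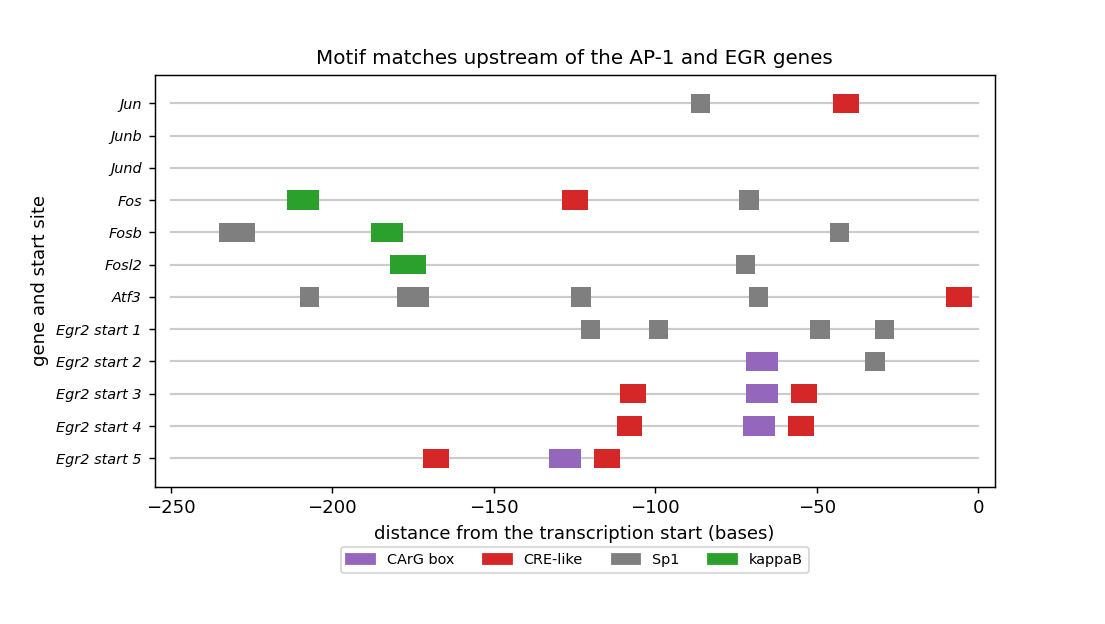
Motif matches in the 250 bases before each start of transcription for the 8 members with a window (Egr2 has 5 starts); the x axis is the distance from the start in bases and colours mark the motif. CRE-like matches (red) appear in Jun, Fos, Atf3 and Egr2, and a CArG box (purple) in Egr2.

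The JUN genes differed among themselves. Jun (probe set 10514466), the founding AP-1 subunit and a target of JUN N-terminal kinases, had a log2 signal of 11.29 in control and 9.81 in DSS. Its difference of -1.49 was the lowest among the members, and 1.38% of the 10397 genes past the signal rule had a lower one. The signal rule asks that at least 1 array reach its median over the 23410 annotated probe sets, which was 5.90 for control and 5.79 for DSS. Junb, which often restrains JUN activity, read 7.69 in control and 7.56 in DSS. Jund, usually the most steadily expressed JUN gene, read 7.20 and 6.97. The differences of Junb and Jund, -0.13 and -0.23, were smaller than the robust SD of 0.40 over all genes, used here as a yardstick of how far 2 arrays part across genes, which is not a replicate error.

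The FOS genes differed in both directions. Fos (probe set 10397346), the best known immediate early gene, read 9.10 in control and 9.06 in DSS. Its difference of -0.04 was close to the median of -0.02 over all genes. The sign turned to 0.07 when the arrays were centred on their medians, which put the median over all genes at 0.09. Fosb, which makes a full-length and a shortened protein that a single probe set does not separate, read 11.49 in control and 10.89 in DSS. Fosl1 and Fosl2 encode the FRA proteins, which lack the strong activation domain of FOS, and both were higher in DSS. Fosl1 read 6.03 and 6.61, the control value being so close to the array median that it cannot be told from background. Fosl2 read 7.25 and 7.67. Their differences of 0.58 and 0.42 exceeded the robust SD of 0.40 and were under 1.5-fold as deposited. Fosl1 passed 1.5-fold under median and loess centring, at 0.69 in both.

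Atf3, a stress-induced factor that pairs with JUN proteins and is known to dampen Toll-like receptor responses, read 12.11 in control and 11.46 in DSS, a difference of -0.65. The EGR genes were both lower in DSS. Egr1 (probe set 10454782), a zinc finger factor induced through serum response factor and its ETS partners, read 10.52 in control and 9.07 in DSS. Its difference of -1.45 was exceeded in the lower direction by 1.52% of genes. Egr2, which acts in macrophage and T cell differentiation, read 10.75 and 10.15. The gap between Egr1 and the next member, Atf3, was 0.80 on the log2 scale, so Jun and Egr1 stood away from the other 8.

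**Figure D2:**
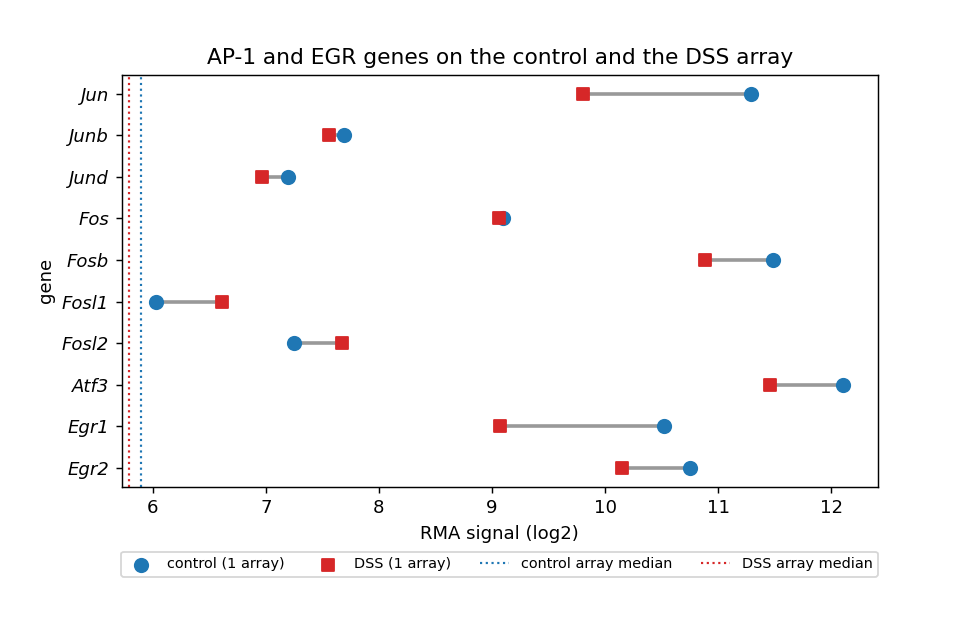
Log2 RMA signal (x axis) of each member (y axis) on the control array (circles) and the DSS array (squares), with the median of each array as dotted lines. Jun and Egr1 have the longest lines, the DSS squares lie left of the control circles for 8 members and right of them for Fosl1 and Fosl2.

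All 10 members passed the signal rule, and all were at or above the median of both arrays. Of them, 2 were at least 2-fold lower in DSS, beside 3.23% of all genes, 0 were at least 2-fold higher, beside 4.25%, and 8 lay between. At 1.5-fold, 5 of the 10 were lower and 0 were higher, whereas 9.15% of all genes were lower and 10.4% higher. The median difference of the members was -0.41, and that of all genes was -0.02. Members just inside the 1.5-fold size were Fosb and Egr2, both at -0.60, and Fosl1, at 0.58, was just outside it on the other side. Median centring, which raised all differences by 0.11, put Atf3, Fosb and Egr2 at -0.54, -0.49 and -0.49, so that 2 members were at least 1.5-fold lower (6.55% of all genes) and 1, Fosl1, was higher (13.9%).

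The members at least 1.5-fold lower were all among those with high signals. Among the 2190 genes with a mean signal of at least 9 on the log2 scale, a value chosen after the data were seen, 6.53% were at least 1.5-fold lower in DSS and 12.7% at least 1.5-fold higher. The members in that range were Jun, Fosb, Atf3, Egr1, Egr2 and Fos, and 5 of these 6 were at least 1.5-fold lower. The 4 dimmer members (Junb, Jund, Fosl1 and Fosl2) lay within 1.5-fold. Dim probe sets have their differences compressed by RMA, whose part in this division was not tested.

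**Figure D3:**
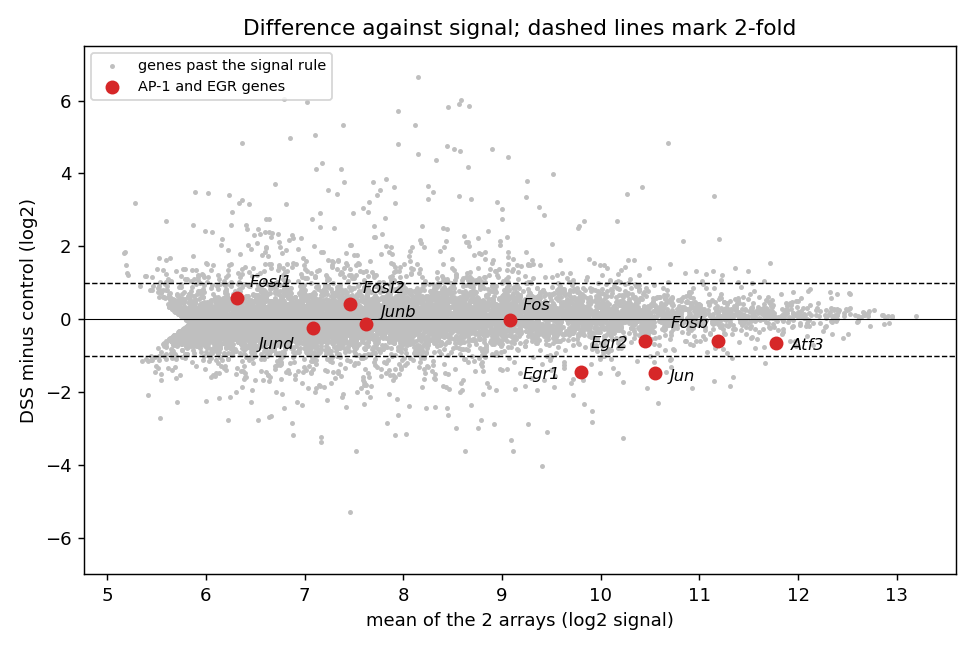
Difference, DSS minus control (y axis, log2), against the mean of both arrays (x axis, log2 signal) for 10397 genes past the signal rule (grey) and the 10 members (red); dashed lines mark 2-fold. Jun and Egr1 lie below the lower dashed line, and the members with mean signals under 9, and Fos, lie within 1.5-fold.

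Other bZIP factors had a median difference equal to that of all genes to 2 decimals. Among the 21 genes past the signal rule, 2 reached 2-fold downward and 0 upward, beside 3.23% and 4.25% of all genes. The median difference of the list, -0.02, turned to 0.09 under median centring, where that of all genes was also 0.09. Ddit3, which encodes the stress factor CHOP, read 10.32 in control and 8.76 in DSS, a 2.93-fold lower value that exceeded that of Jun. Maf, a large MAF factor that is also on the resident macrophage list, was 2.07-fold lower. Atf7, a relative of the JUN partner ATF2, was 1.47-fold lower, and Batf2, an interferon-inducible BATF protein that can pair with JUN proteins, was 1.68-fold higher. The other JUN partners Batf, Batf3 and Jdp2, named after their values were seen, had differences of 0.01, 0.10 and 0.06.

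Other immediate early genes had differences in both directions. Among the 49 past the signal rule, 3 reached 2-fold upward, 2 downward and 44 neither, beside 4.25% of all genes upward and 3.23% downward. The median of the list was -0.06, and it was 0.05 under median centring, which put that of all genes at 0.09. Gadd45a, a stress sensor that acts on p38 and JNK signalling, read 7.59 in control and 9.71 in DSS, 4.36-fold higher. Sgk1, a serum and glucocorticoid induced kinase, was 2.14-fold higher. Ccn1, a secreted matrix protein induced through serum response factor and YAP, was 2.40-fold lower, and the zinc finger factor Klf4 was 2.11-fold lower. Egr3, named after its value was seen, read 6.65 and 6.50, and Egr4 was under both array medians, reading 5.45 and 5.30. Dusp1, Ier2, Zfp36 and Nfkbia, classic members of this class also named after their values were seen, had differences of -0.10, 0.12, 0.01 and 0.07, of which all but that of Ier2 turned sign under a centring.

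The kinases and factors upstream of AP-1 and EGR had 2 of 28 genes that reached 2-fold upward, 0 downward and a median of 0.24. Of all genes, 4.25% reached it upward and 3.23% downward. Map2k4, the kinase that activates JNK and p38, read 6.86 in control and 8.46 in DSS, 3.04-fold higher. Braf, which feeds the ERK cascade, was 2.22-fold higher. The p38 delta gene Mapk13 and Mapkapk3, a kinase downstream of p38, were 1.73-fold and 1.72-fold higher. Elk1, an ETS partner of serum response factor at the Egr1 and Fos promoters, was furthest the other way at 1.51-fold lower. Srf itself, named after its value was seen, read 6.96 and 6.86. Signals of kinase mRNA say nothing of kinase activity.

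Among repressors and partners of AP-1 and EGR, 1 of 19 genes reached 2-fold upward and 1 downward, around a median of 0.09. The shares over all genes were 4.25% upward and 3.23% downward. Irf4, which binds DNA together with BATF and JUN proteins, read 7.66 in control and 6.14 in DSS, 2.88-fold lower. Its DSS value lies close to the median of that array, 5.79, so the size of the difference is uncertain. Tcf7l2, which can cooperate with JUN, was 2.03-fold higher, but loess centring put it under 2-fold. The EGR corepressor genes Nab1 and Nab2, the latter named after its value was seen, lay on opposite sides, with differences of 0.87 and -0.56. Nab2 is itself known as an EGR target. Nfatc2, which binds composite sites with AP-1, was 1.70-fold lower.

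Genes known to carry AP-1 or EGR sites went both ways, with 4 of 21 past 2-fold upward and 5 past it downward. The shares over all genes were 4.25% and 3.23%. Timp1, among the 4 upward, passed the signal rule through the DSS array alone, so its place in this count follows from the rule. With both arrays required at their median the upward count was 3. The median of this list was 0.00 (-0.04 under loess centring). Il6 and Vegfa were 5.91-fold and 3.47-fold higher in DSS. The chemokine gene Ccl2 and the haem oxygenase gene Hmox1 were 3.70-fold and 3.37-fold lower. Each of these genes also answers to other factors, and the list does not measure AP-1 activity. Mmp9 of this list, which read 7.80 in control and 8.99 in DSS, is also on the neutrophil list.

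Heat shock genes were lower in DSS. Among 15 genes past the signal rule, 6 reached 2-fold downward and 0 upward, around a median of -0.69. Of all genes, 3.23% reached it downward and 4.25% upward. Dnaja4, among the 6, passed the signal rule through the control array alone, so its place in this count follows from the rule. With both arrays required at their median the downward count was 5. All 15 differences were below 0 as deposited, but Hspb8 turned above it under both centrings and Hspa8 under median centring. Hspb1, a small heat shock protein gene, read 9.61 in control and 6.46 in DSS, 8.88-fold lower, and the cochaperone gene Bag3 was 5.46-fold lower. The chaperone genes Hsph1 and Dnajb1 were 4.89-fold and 3.63-fold lower. Heat shock and immediate early genes are both known to be induced while tissue is digested and sorted. The heat shock values differed in the direction of Jun, Egr1, Atf3, Egr2 and Fosb. Immediate early genes outside the members had 26 differences below 0 and 23 above it, and 5 of the 26 turned above 0 under median centring and 5 of the 23 turned below it under loess centring. The part of cell handling in any of these differences was not tested.

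**Figure D4:**
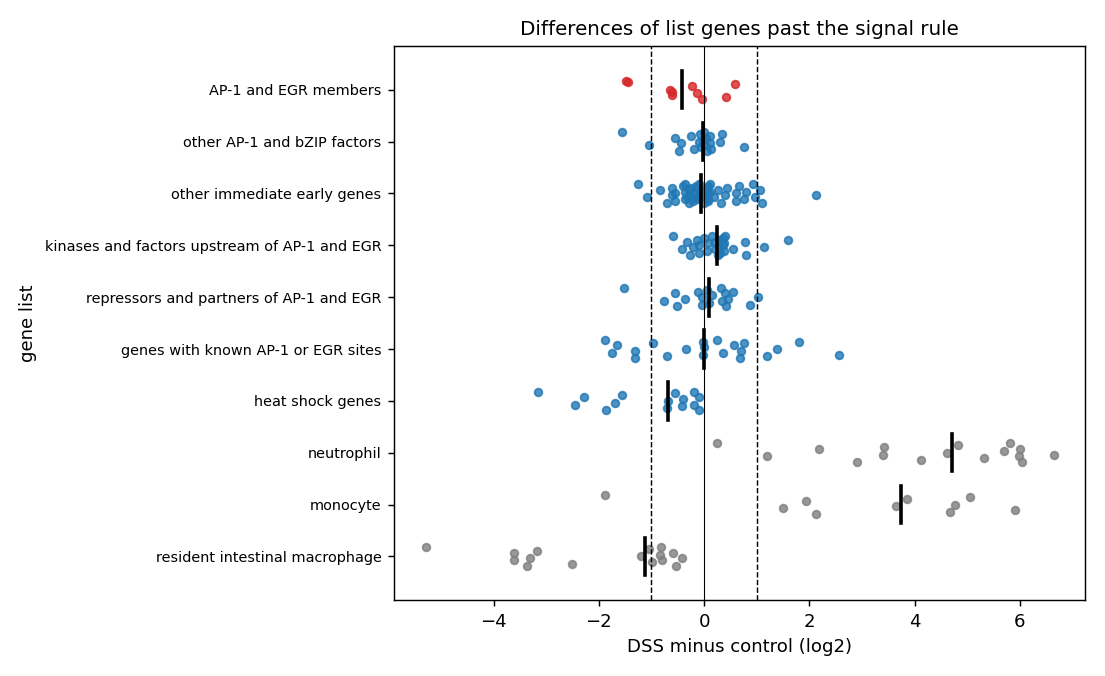
Difference, DSS minus control (x axis, log2), for each gene past the signal rule in the members (red), related lists (blue) and lists of myeloid cell types (grey); black bars are list medians and dashed lines mark 2-fold. Heat shock genes lie below 0 as deposited (Hspb8 and Hspa8 turn above it under median centring), neutrophil genes all above 0, and the medians of the other blue lists lie between -0.06 and 0.24.

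Markers of neutrophils, monocytes and resident macrophages differed between the same arrays. Of all genes, 4.25% were at least 2-fold higher in DSS and 3.23% at least 2-fold lower. Among 16 neutrophil markers past the signal rule, 15 reached 2-fold upward in DSS, with differences from 0.25 to 6.65, Mmp8 and Stfa3 leading. Of the 16, 9 passed the rule through the DSS array alone, Mmp8 and Stfa3 among them, so their place in this count follows from the rule, and their control signals (4.82 and 3.77) cannot be told from background, which leaves the size and order of their differences uncertain. The log2 of the summed signal of this list was 11.16 in control and 15.23 in DSS, and Ly6g read 4.04, below the control array's median, and 10.01. Of 10 monocyte markers 9 were at least 2-fold higher (-1.88 to 5.90, Chil3 and Ly6i leading), with log2 summed signals of 12.20 and 14.25. Chil3 and Ly6i also passed through the DSS array alone, from control signals of 5.62 and 4.59, with the same limit. Of 16 resident macrophage markers 9 were at least 2-fold lower (-5.29 to -0.42, Vsig4 and Folr2 leading), with sums of 15.08 and 13.97. Vsig4, Folr2 and Cd209f were under the DSS array's median and passed the rule through the control array alone. Their place in this count follows from the rule, and the sizes of their differences are uncertain likewise. The part of these cell types in the differences of the members was not tested. In RNA of a sorted population fewer cells of a type and less RNA per cell cannot be told apart.

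The remaining marker lists differed in both directions. Their counts at 2-fold stand beside 4.25% of all genes higher and 3.23% lower. The dendritic list had 2 of 8 genes at least 2-fold higher and 1 lower (-1.44 to 1.31, Siglech and Cd24a leading), with log2 sums of 11.35 and 12.40. The T and NK list had 1 of 4 higher and 3 lower (-2.85 to 1.68, Cd28 and Gzma leading), with sums of 10.23 and 9.11, and Cd3d, Cd3e and Cd3g were below the median of both arrays. The B and plasma list had 0 of 6 higher and 1 lower (-1.17 to 0.49, Tnfrsf17 and Mzb1), with sums of 11.31 and 11.12, and the mast cell and eosinophil list 0 of 4 in either direction (-0.24 to 0.96, Kit and Siglecf), with sums of 8.85 and 8.94. Cd28 and Tnfrsf17 passed the signal rule through the control array alone, and Gzma and Kit through the DSS array alone. Their places in these lists follow from the rule, and the sizes of their differences are uncertain. The epithelial list had 1 of 7 higher (-0.49 to 1.40, Fabp2 and Car1), with sums of 9.90 and 10.34, and the fibroblast, muscle and endothelial list 0 of 8 in either direction (-0.58 to 0.85, Pecam1 and Cdh5), with sums of 10.80 and 10.71. Genes of the gated antigens were above both medians. Control signals of Ptprc, H2-Ab1, Itgam and Adgre1 were 11.54, 11.99, 9.59 and 11.65, against DSS signals of 11.94, 12.13, 10.19 and 10.82, and Itgae, which encodes CD103, read 4.89 and 4.91, below both medians.

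Genes most like Jun and Fosl1, the members with the lowest and the highest difference, were found by the distance between their 2 log2 signals. Nearest to Jun were Wwp1 (11.38 in control and 9.94 in DSS, distance 0.16), Txnip (11.13 and 9.94, distance 0.21) and Mmp13 (11.36 and 10.06, distance 0.26). Nearest to Fosl1 were Lmbr1l (6.04 and 6.60, distance 0.01), Itpa (6.02 and 6.57, distance 0.04) and Kctd9 (6.06 and 6.57, distance 0.05). Likeness over 2 arrays is a description of these values only.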

How the data were processed

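The deposited table holds log2 signals of 35556 probe sets on 2 arrays, hybridised from 100 ng of total RNA per the labels' protocols. The submitters' processing notes name RMA, which corrects background, normalises and summarises probes on the log2 scale. The sources used here give no RMA version or settings and no genome build. Values were used as deposited. The platform annotation gave 1 gene symbol to 21789 probe sets and several to 1621, and the other 12146 named no gene. For each gene the probe set of highest mean signal was used. No replicate exists, so no test, SE or p-value is given. The robust SD of differences was 0.40, and in 613 genes with several probe sets the pooled SD between them was 0.28, which covers probe noise only. The number of arrays limits the precision.

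Members, the 6 related lists and the 10 marker lists were chosen with earlier results of these data known. Named genes were the members, the 4 genes of each related list with the largest differences plus the gene furthest the other way, 2 genes of each marker list, the sort antigens and the 3 genes nearest to Jun and to Fosl1. All other genes were named after their values were seen, whether or not the text says so beside them. Alternatives covered median and loess centring (span 0.4), the mean over probe sets, a floor at the 25th percentile, the signal rule and sizes of 1.5-fold and 3-fold. The steps were tested on simulated data. Python 3.11.15, numpy 2.4.6, pandas 2.3.3, statsmodels 0.14.6 and matplotlib 3.10.9 were used.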

Additional observations from a re-analysis of the deposited data

How the results depend on the processing

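No paired analysis was possible because each group has 1 array. Every member but Fos kept its sign under both centrings. Ranges over the deposited and centred values were -1.62 to -1.38 for Jun, -1.57 to -1.34 for Egr1, -0.82 to -0.54 for Atf3 and 0.58 to 0.69 for Fosl1. Fos ranged from -0.13 to 0.07. The median of the members ranged from -0.46 to -0.31. Each member has 1 probe set, and all 10 are at or above both array medians. The mean over probe sets, the floor and the other signal rules therefore could not change their values or counts. Jun and Egr1 were the count of 2 at 2-fold under both centrings. That count was 5 at 1.5-fold and 0 at 3-fold. The 1.5-fold counts, added after seeing the data, were 2 lower and 1 higher under median centring and 1 higher under loess centring. Under median centring the other bZIP list had 1 gene at least 2-fold lower, and the immediate early list 5 higher and 1 lower. Under loess centring the repressor and partner list had 0 higher. At 1.5-fold the bZIP list had 1 higher, the immediate early list 10 higher and 6 lower, the upstream list 4 and 1, the repressor and partner list 2 and 2, and the list of genes with known sites 7 and 7. Of all genes, 10.4% were higher and 9.15% lower at 1.5-fold. At 3-fold the bZIP list had 0 lower, the immediate early list 1 higher and 0 lower, the upstream list 1 higher, the repressor and partner list 0 and 0, and the list of known sites 2 higher and 3 lower. Median centring moved the median of all genes by 0.11, and the split of all genes past 2-fold went from 442 higher and 336 lower to 539 and 272. These moves follow from the sizes and shifts used. Dim signals such as those of Fosl1 and Il6 in control and of Irf4 and Hspb1 in DSS have no detection call. The sizes of the differences of these genes are therefore uncertain.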

Other observations

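Gene families within the immediate early list were set side by side after their values were seen. Among the NR4A orphan nuclear receptors, Nr4a2 read 8.48 in control and 9.54 in DSS, Nr4a3 read 7.64 and 8.31, and Nr4a1, the member most often used as a marker of acute stimulation, read 9.69 and 9.48. In the GADD45 family, Gadd45a had a difference of 2.13, while Gadd45b read 9.59 and 9.32 and Gadd45g 6.71 and 6.15. The Krüppel-like factors Klf2, Klf4, Klf6 and Klf10 had differences of -0.70, -1.08, -0.56 and -0.26, and all 4 stayed below 0 under both centrings.

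The phosphatases that switch off MAP kinases also parted. Dusp2, induced in activated leukocytes, read 7.67 in control and 8.47 in DSS, Dusp6, which acts on ERK, read 8.81 and 8.41, and Dusp1 read 12.27 and 12.17. The antiproliferative genes Btg1 and Btg2 had differences of 0.97 and -0.36, and the polo-like kinase genes Plk2 and Plk3 differences of -0.62 and 0.92.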
